A study of Homo sapiens with 21 samples.

Results

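The 63938 sites described here were stretches of accessible chromatin that HOMER, a tool that assigns each site to its nearest gene, annotated as intergenic and placed over 3 kb and at most 50 kb from a transcription start site (TSS). They were chosen by annotation and distance alone, with no use of a measured value, and made up 17.4% of the 367900 consensus sites of the series and 35.5% of its 179913 intergenic sites. ATAC-seq, an assay in which Tn5 transposase places sequencing adapters into exposed DNA, was run on the established cell line SK-N-BE(2), derived from a human neuroblastoma, 72 h after lentiviral transduction with short hairpin RNAs (shRNAs). The 21 libraries formed 7 groups of 3, namely Control, shARID1A.2 and shARID1A.4 (2 shRNAs against ARID1A), shARID1B.2 and shARID1B.3 (2 against ARID1B), and shARID1A/B.2.3 and shARID1A/B.4.2 (2 combinations against both genes). Every group was made of transduced cells of the same line. The labels do not describe Control further, although a non-silencing shRNA was the control in the study's silencing experiments, and they do not spell out which shRNAs each combination holds. The submitters call the replicates biological triplicates, and p-values measure the spread between these triplicates only.

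ARID1A and ARID1B are alternative subunits of the BAF complex, an ATP-driven remodeller that slides and evicts nucleosomes. Open sites far from promoters often act as enhancers, where factors such as AP-1, GATA and homeodomain proteins bind their short recognition words, and BAF is known to keep many enhancers open. In adrenergic neuroblastoma cells a circuit of factors that includes HAND2 and GATA3 is known to occupy such sites. Sites are called after the closest gene, although they may act on another.

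The central 300 bases of 5 sites are shown because these sites were among those with the 3 largest falls and the 3 largest rises after combined silencing under the naming rule described with the results. The windows with the largest falls, near RP11-664H17.1 (chr12:19978206-19978505), CRYGS (chr3:186532593-186532892) and OPCML (chr11:133573149-133573448), and those with the largest rises, near LOC100128139 (chr19:22545853-22546152) and RGS4 (chr1:163050592-163050891), were read from the plus strand of GRCh38. Capitals mark matches on either strand to any of 9 motif words, spelled out with the motif results. The window of the RGS4 site extends past both ends of that site, which was 262 bases wide.
RP11-664H17.1 site: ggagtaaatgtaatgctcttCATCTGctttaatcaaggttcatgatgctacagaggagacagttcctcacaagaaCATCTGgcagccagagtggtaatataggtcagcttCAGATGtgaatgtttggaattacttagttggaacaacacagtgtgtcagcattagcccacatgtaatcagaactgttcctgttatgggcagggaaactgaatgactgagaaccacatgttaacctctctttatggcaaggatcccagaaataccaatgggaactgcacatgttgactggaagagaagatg
CRYGS site: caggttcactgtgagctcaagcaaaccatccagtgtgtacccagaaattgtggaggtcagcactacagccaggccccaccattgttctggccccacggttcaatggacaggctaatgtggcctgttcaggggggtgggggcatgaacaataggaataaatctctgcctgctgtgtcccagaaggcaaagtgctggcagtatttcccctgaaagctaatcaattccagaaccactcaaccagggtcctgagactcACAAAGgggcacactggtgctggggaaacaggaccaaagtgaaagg
OPCML site: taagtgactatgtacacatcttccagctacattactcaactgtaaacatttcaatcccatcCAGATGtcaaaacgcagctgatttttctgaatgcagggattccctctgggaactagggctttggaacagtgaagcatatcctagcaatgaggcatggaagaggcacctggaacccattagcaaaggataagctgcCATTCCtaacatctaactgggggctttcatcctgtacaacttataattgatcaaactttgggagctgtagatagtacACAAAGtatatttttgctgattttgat
LOC100128139 site: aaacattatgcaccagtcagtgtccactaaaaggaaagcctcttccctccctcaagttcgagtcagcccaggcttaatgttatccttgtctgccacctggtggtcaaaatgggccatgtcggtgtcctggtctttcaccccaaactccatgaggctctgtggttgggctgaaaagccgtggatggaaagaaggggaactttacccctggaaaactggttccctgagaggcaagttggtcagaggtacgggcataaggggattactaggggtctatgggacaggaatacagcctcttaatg
RGS4 site: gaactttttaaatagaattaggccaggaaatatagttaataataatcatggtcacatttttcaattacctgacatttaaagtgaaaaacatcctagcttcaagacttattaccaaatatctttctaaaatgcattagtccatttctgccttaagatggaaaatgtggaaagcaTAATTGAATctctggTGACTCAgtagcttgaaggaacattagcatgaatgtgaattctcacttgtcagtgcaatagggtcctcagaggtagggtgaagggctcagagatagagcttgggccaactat
The capitals in the RP11-664H17.1 window are the E-box word CATCTG or its reverse complement CAGATG. The OPCML window held an E-box word, a TEAD word and a SOX word, and the CRYGS window held a SOX word only. Of the 2 windows shown from sites that rose, RGS4 held a homeodomain word and the AP-1 word, and the LOC100128139 window held none of the 9. A match describes the letters and is not evidence that a factor was bound.

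The sites lay at a median of 21.9 kb from the TSS of 13784 nearest genes, 65.0% of them upstream of it. Of the tested sites, 57.7% had a protein-coding gene as the nearest gene and 13.1% a long non-coding RNA. For 20.5% the nearest gene had no match in the gene reference, so its type is not known here. Against the more recent GENCODE release 44, 35.4% of the tested sites overlapped an annotated gene of any kind and 11.1% a protein-coding gene, so that intergenic refers to the deposited HOMER annotation. The median width of all sites of the class was 755 bases, with a range of 187 to 11903 bases. In Control libraries the median tested site had 1.06 CPM, the count of a site scaled to the size of its library with the edgeR TMM method, and the 5th and 95th percentiles were 0.312 and 6.95 CPM. All sites of the class together held between 13.3% and 13.6% of the reads in Control and between 12.5% and 13.0% with the combinations.

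Library totals over all sites ranged from 16140029 to 44472230 reads, and replicates of a group differed by more than counting noise, with a chi-square per degree of freedom of 1.08 to 2.47. Markers of the adrenergic state were checked at sites annotated as promoters: PHOX2A (24.0 CPM in Control), HAND2 (43.9 CPM), DBH (10.3 CPM) and TH (2.43 CPM) had such a site, whereas GATA3 and ISL1 had none among the sites used here. Of the 12 markers of mesenchymal neuroblastoma, blood, epithelium, liver and endothelium, CDH5 (2.08 CPM) alone had a promoter site. Since GATA3 and ISL1 lacked one too, the lack of such a site does not tell these cell types apart. The median promoter site had 10.9 CPM in Control, above both TH and CDH5. Reads in promoter sites took 20.0% to 20.6% of Control libraries and 23.4% to 25.1% of combination libraries, and the part of this shift in the results below was not tested. In bulk cells, fewer cells with an open site and a less accessible site in every cell cannot be told apart.

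The first comparison asked how these distal sites changed when both subunits were silenced. Averaged over both combinations, 6351 of the 62026 tested sites closed against Control and 1588 opened, where closed and opened mean a lower or higher accessibility at a false discovery rate (FDR) under 0.01 in the edgeR quasi-likelihood test adjusted over all tested sites. These were 10.2% and 2.56% of the sites, beside 10.3% closed and 3.43% opened over all 357029 tested sites of the series. Under the TMM scaling, the share that closed was thus near the background of the whole series, and the share that opened was below it. The other 1912 sites of the class did not pass the filter on low counts and were not tested. Closed sites had a median log2 change of -0.96, with 2918 of them down by at least 1, and opened sites had a median of 0.59, with 168 up by at least 1. Over all 357029 tested sites of the series, 15917 closed and 900 opened by at least 1. Over all tested sites of the class the median log2 change was 0.02.

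Scaling bears on the direction of these counts. The TMM method takes the bulk of the sites as unchanged, and when its factors were instead computed on promoter sites, the median log2 change over all tested sites moved from 0.03 to -0.20, 9783 of the intergenic sites closed and 298 opened. These were 15.77% and 0.480%, beside 15.84% and 0.692% over all tested sites. With loess offsets, which let the scaling vary with the level of a site, 5955 closed and 2711 opened. These were 9.60% and 4.37%, beside 9.67% and 4.27% over all tested sites, so the opened share was then not below the background. The median of the class itself moved from 0.02 to -0.21 with TMM on promoter sites. Changes below are given relative to the TMM scaling. Sites whose call was lost, and gene lists whose balance of calls or reported median turned under another scaling, are named where they occur. Values that were not called can also change sign with the scaling.

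**Figure D1:**
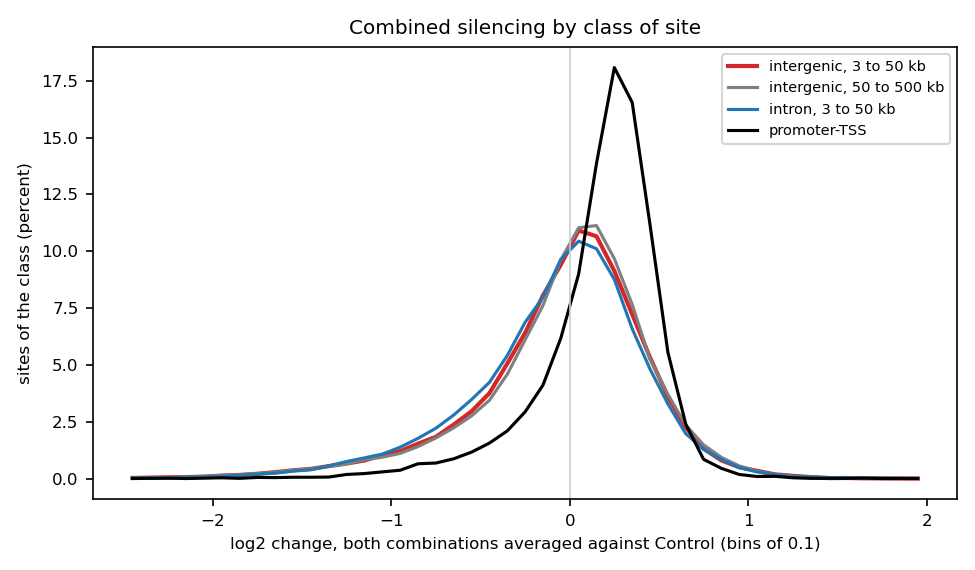
Distribution of the log2 change of accessibility after combined silencing (both combinations averaged against Control, bins of 0.1) for 4 classes of sites, as a percent of the tested sites of each class. The curve of the intergenic sites 3 to 50 kb away lies close to those of farther intergenic sites and of intron sites, with a median of 0.02, whereas promoter sites are centred at a median of 0.23.

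The class was set beside its neighbours in the genome, as plotted in the distributions of change by class of site. Intergenic sites over 50 kb and at most 500 kb away closed in 9.41% and opened in 1.45% of 95193 cases, and intron sites over 3 kb and at most 50 kb away closed in 11.8% and opened in 1.86% of 79233. Sites annotated as promoter-TSS closed in 4.24% and opened in 33.4% of 12310, with a median log2 change of 0.23. With TMM on promoter sites this promoter median is centred near 0 by construction. These shares are descriptions, since sites of 1 library share that library's depth and scaling and are not replicates. Per kb of site width, the median level over the 21 libraries was 1.38 CPM at the intergenic sites 3 to 50 kb away and 7.36 CPM at promoter sites.

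The limits of the distance rule did not coincide with a step in the shares. Among intergenic sites just outside the near limit, 2 to 3 kb from the TSS, 11% closed and 4.45% opened, and just inside it, at 3 to 4 kb, 11.3% closed and 4.20% opened. At the far limit, 10.9% closed and 2.23% opened at 45 to 50 kb, and 11% and 2.14% at 50 to 55 kb.

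Within the class, the share of opened sites was higher near the TSS. Sites 3 to 10 kb away opened in 3.34% of cases, those 10 to 20 kb away in 2.70%, 20 to 30 kb in 2.53%, 30 to 40 kb in 1.94% and 40 to 50 kb in 2.09%. The share of closed sites was 9.50%, 9.81%, 10.8%, 10.4% and 10.9% in the same order. The side of the TSS made little difference to either share, with 10.2% closed and 2.48% opened upstream and 10.3% closed and 2.71% opened downstream.

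Calls were concentrated among the most accessible sites. In the quartile with the highest mean CPM 22.9% of sites closed and 7.25% opened, and in the lowest quartile 2.83% closed and 0.348% opened. The median coefficient of variation between Control libraries was 11.8% in the highest quartile and 29.4% in the lowest, so the precision of the measurement moved with the level, and its part in these shares was not tested. Wider sites were called more often, with 4.60% closed in the narrowest quartile and 16.0% in the widest. Within the quartile of the highest CPM the order turned, with 25.7% closed among the narrowest sites and 16.1% among the widest.

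Base composition separated the directions. In the quartile with the lowest GC content 15.1% of the sites closed and 1.67% opened, and in the quartile with the highest 7.27% closed and 4.77% opened. Among the most accessible sites the spread was wider, from 32.9% closed and 4.10% opened at the lowest GC content to 13.7% closed and 13.7% opened at the highest. With offsets fitted to GC content in each library, 6352 sites closed and 1861 opened after combined silencing. These were 10.2% and 3.00%, beside 9.97% and 3.37% over all tested sites.

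**Figure D2:**
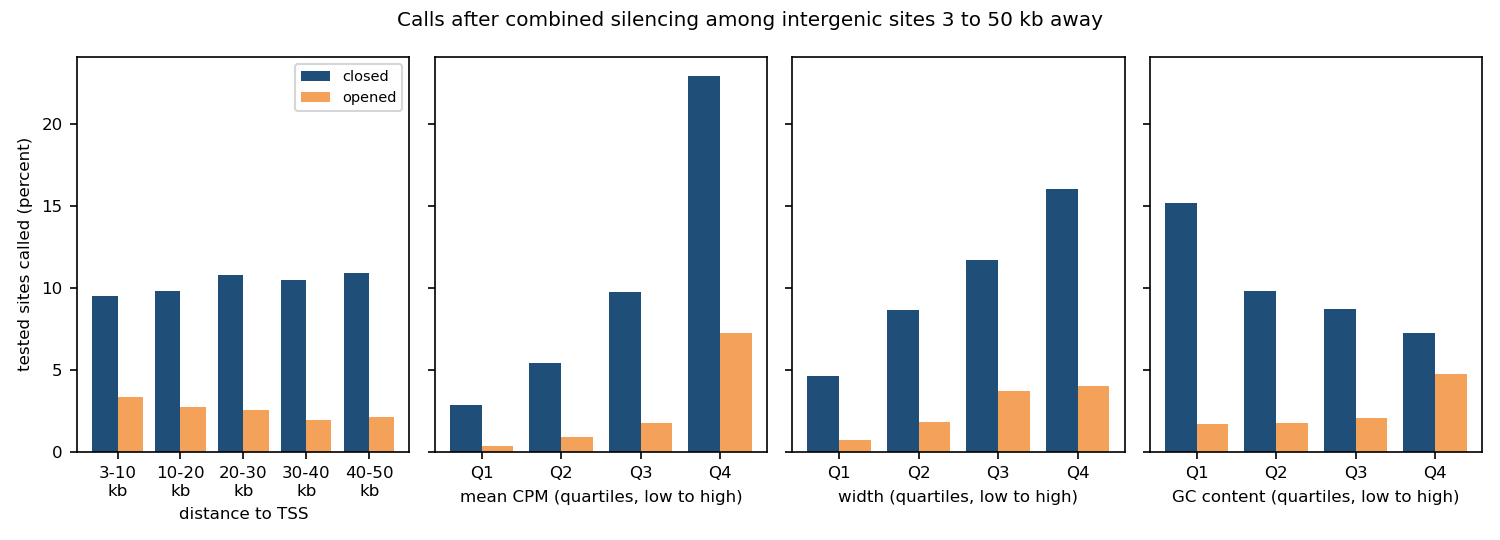
Percent of tested sites called closed (blue bars) or opened (orange bars) after combined silencing at an FDR under 0.01, by distance band and by quartile of mean CPM, width and GC content. The closed share runs from 2.83% to 22.9% over quartiles of CPM and from 15.1% to 7.27% over quartiles of GC content, and stays between 9.50% and 10.9% over distance bands.

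Changes clustered along the chromosome. Of 43555 pairs of adjacent sites of the class at most 10 kb apart, the next site was closed in 22.7% of the cases in which the first was closed, beside 9.20% over all pairs. The next site was opened in 11.4% of the cases after an opened site, beside 2.07% over all pairs. By chromosome, the closed share ran from 5.91% on chromosome 19 to 21.5% on chromosome 18, beside 5.71% and 23.6% of all tested sites there. Chromosome 19 had 12.9% of its sites of the class opened and chromosome 18 had 6.30%, beside 21.4% and 9.93% of all their tested sites. On unplaced or unlocalized sequences, 11.1% of 226 sites opened and 4.42% closed.

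Short motif words were searched on both strands of the central 300 bases, with overlapping matches allowed. Sites that closed held the homeodomain word TAATNNAAT in 11.2% of cases, beside 5.12% of sites called in neither direction, 4.09% of opened sites and 6.39% of all consensus sites. The GATA word AGATAA was in 23.4% of closed, 15.0% of uncalled and 9.76% of opened sites, with 16.9% over all sites. For the E-box word CATCTG, recognised by HAND and TWIST factors, the shares were 34.9%, 22.8% and 18.6% (23% over all sites). The AP-1 word TGANTCA was in 14.2%, 11% and 8.88% (10.9% over all sites). Each of these 4 words was thus found more often at sites that closed than at sites that opened.

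Because GC content separated the directions, the shares were also taken among the most accessible sites in the lower GC quartiles. There the homeodomain word was in 14.9% of 2052 closed, 8.89% of 4884 uncalled and 10.2% of 325 opened sites, and the E-box word in 29.0%, 20.9% and 20.6%. The GATA word was in 28.6% of closed, 20.9% of uncalled and 21.2% of opened sites. The AP-1 word no longer followed that order, with 14.3% of closed, 11.9% of uncalled and 16.9% of opened sites.

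The CTCF word AGNGGGCGC ran the other way. It was in 0.236% of closed, 1.0% of uncalled and 3.59% of opened sites, beside 0.881% of all sites. Of the 614 intergenic sites with this word, 57 opened (9.28%) and 15 closed (2.44%), with a median log2 change of 0.18. Over all tested sites with the word, 18.2% opened and 2.62% closed. Among the most accessible sites in the lower GC quartiles, the word was in 0.0975% of closed, 0.839% of uncalled and 1.23% of opened sites. The NRF1 word GCGCATGCG was rare, at 0.0887% of sites of the class (0.111% over all sites), and 18 of its 55 sites opened while 2 closed. That was 32.7% opened, beside 37.5% of all tested sites with this word. In the same lower GC sites, it was in 0% of the 325 opened sites. The ETS word CCGGAAGT was in 0.252% of the sites (0.359% over all), of which 10 of 156 opened and 8 closed. These were 6.41% and 5.13%, beside 24.1% and 5.28% of all tested sites with this word. The TEAD word GGAATG, in 17.4% of the sites (16.9% over all), and the SOX word ACAAAG, in 21.3% (21.9% over all), had closed shares of 10.6% and 10.4%.

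The sites named in what follows had to be called in the averaged contrast and with each combination in the same direction, to have a mean of at least 1 CPM and to show no overlap between the 6 combination libraries and the 3 of Control. Of the sites of the class, 3304 met this rule for a fall and 364 for a rise, and the 10 largest of each were named, with at most 1 per nearest gene. The rule was applied to sites of the class only, so no share over all tested sites stands beside these counts. Their values are plotted by library in the plot of the largest falls and rises.

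**Figure D3:**
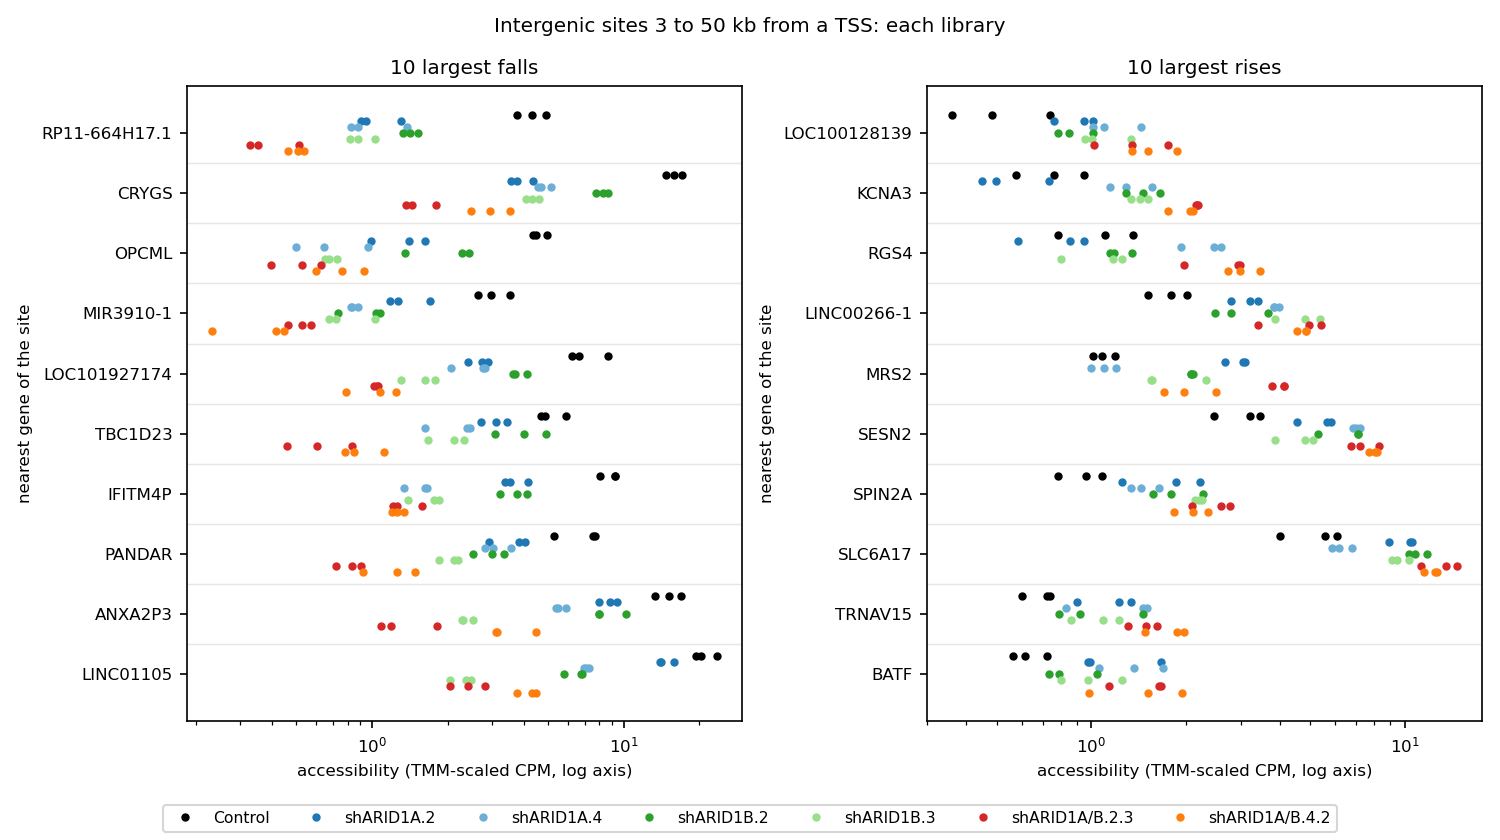
Accessibility of the 10 most closed and the 10 most opened named sites, in TMM-scaled CPM on a log axis, with a point for each of the 21 libraries and a colour for each of the 7 groups. By the naming rule the combination libraries lie apart from Control at every site; at 5 of the 10 falling sites all 12 single-shRNA libraries lie between Control and the combinations, and at KCNA3, RGS4, MRS2 and SLC6A17 at least 1 single-shRNA group overlaps Control.

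The largest fall was at a site 36329 bases upstream of RP11-664H17.1, a non-coding RNA gene on chromosome 12 (623 bases, chr12:19978045-19978667). Control libraries had 4.91, 4.31 and 3.77 CPM, shARID1A/B.2.3 0.328, 0.511 and 0.352 CPM and shARID1A/B.4.2 0.538, 0.506 and 0.464 CPM. The single shRNAs gave 0.906, 1.30 and 0.943 CPM (shARID1A.2), 0.824, 0.878 and 1.38 (shARID1A.4), 1.42, 1.52 and 1.33 (shARID1B.2) and 1.03, 0.816 and 0.882 (shARID1B.3). All 12 single-shRNA libraries lay below every Control library and above every combination library. The log2 change was -3.23 (SE 0.18, FDR 6.23e-28) for the combinations, -2.07 (SE 0.16, FDR 4.31e-18) for the ARID1A shRNAs and -1.92 (SE 0.16, FDR 1.14e-17) for the ARID1B shRNAs (edgeR).

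A site 11635 bases downstream of CRYGS, which encodes a crystallin of the eye lens, had the second-largest fall (chr3:186532306-186533180). It measured 17.0, 14.7 and 15.8 CPM in Control, 1.44, 1.37 and 1.80 with shARID1A/B.2.3 and 2.96, 2.48 and 3.52 with shARID1A/B.4.2. The single shRNAs ranged from 3.58 to 8.69 CPM, again with all 12 libraries between Control and the combinations. The combined log2 change was -2.90 (SE 0.11, FDR 1.67e-39), and the combinations differed from each other by -0.99 (SE 0.17, FDR 8.95e-06) as 2.3 minus 4.2 (edgeR). At this site shARID1B.2 (-0.94 on the log2 scale) stood apart from the other single shRNAs, which ranged from -1.72 to -2.02.

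The OPCML site, 40839 bases upstream of a gene for an adhesion protein of the IgLON family (chr11:133573071-133573527), had 4.47, 4.97 and 4.37 CPM in Control. The shARID1A/B.2.3 libraries had 0.525, 0.627 and 0.396 CPM and those of shARID1A/B.4.2 had 0.762, 0.598 and 0.928 CPM. With the single shRNAs it had 1.40, 1.62 and 0.988 CPM (shARID1A.2), 0.961, 0.647 and 0.501 CPM (shARID1A.4), 2.27, 1.35 and 2.44 CPM (shARID1B.2) and 0.726, 0.652 and 0.672 CPM (shARID1B.3). Here the libraries of shARID1A.4 and shARID1B.3 overlapped those of the combinations, and all 12 single-shRNA libraries lay below Control. The combined log2 change of -2.84 (SE 0.17, FDR 9.47e-26) was smaller in size than the ARID1A and ARID1B changes added together, with a departure of 1.34 (SE 0.26, FDR 0.0011) (edgeR).

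The same gene shared the largest number of closed sites of the class, 8, with 2 other genes. Of its 10 tested sites, which lie upstream at chr11:133536279-133580146, 8 closed and none opened, with log2 changes from -2.84 to -0.07. The sum of CPM over these 10 sites was 105 ± 2.96 in Control (SD, n = 3), 47.0 ± 0.752 with shARID1A/B.2.3, 51.0 ± 0.924 with shARID1A/B.4.2, and 62.7 to 69.7 as the means of the single-shRNA groups. No test was run on the sum. The 2 sites nearest to the TSS, at 4434 and 9173 bases, were those not called, with log2 changes of -0.31 and -0.07, while the 8 farther ones fell by 0.77 to 2.84 on the log2 scale.

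The others with many closed sites were LOC101928176 on chromosome 5 (8 of 11), MIR5100 on chromosome 10 (8 of 15), EDN2 on chromosome 1 (7 of 8) and OLFM4 on chromosome 13 (7 of 10), none with an opened site. EDN2 encodes endothelin 2, a vasoconstrictor peptide, and its 8 sites summed to 33.3 ± 4.83 CPM in Control, 17.3 ± 3.00 with shARID1A/B.2.3 and 21.5 ± 0.872 with shARID1A/B.4.2. For OLFM4, a secreted glycoprotein, the sum over 10 sites was 42.7 ± 2.60 CPM in Control and 18.7 ± 0.776 and 21.7 ± 0.142 with the combinations. At least 3 closed sites were nearest to 501 genes and at least 5 to 70 genes, of 4190 genes with any closed site. An opened site was nearest to 1374 genes, of which 362 also had a closed one.

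The TBC1D23 site lies 3831 bases upstream of a gene for a protein of vesicle tethering at the Golgi (chr3:100256845-100257127). It had 5.92, 4.68 and 4.89 CPM in Control, 0.460, 0.604 and 0.835 with shARID1A/B.2.3 and 0.851, 0.782 and 1.11 with shARID1A/B.4.2. Single shRNAs spanned 1.62 to 4.92 CPM, all above the combinations, and 11 of 12 libraries lay below Control. The combined log2 change was -2.77 (SE 0.16, FDR 2.02e-26), beside -1.0 for ARID1A and -0.85 for ARID1B, and the departure from their sum was -0.91 (SE 0.21, FDR 0.01), which lies at the threshold (edgeR).

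At the LINC01105 site, 20723 bases upstream of a long non-coding RNA gene on chromosome 2 (chr2:5911386-5912543), the shRNAs of a gene differed from each other. Control libraries had 19.3, 23.4 and 20.2 CPM, shARID1A.2 15.8, 14.1 and 13.9, shARID1A.4 7.10, 7.30 and 6.95, shARID1B.2 6.77, 5.81 and 6.85 and shARID1B.3 2.37, 2.05 and 2.48 CPM. The combinations had 2.04, 2.42 and 2.81 CPM (shARID1A/B.2.3) and 4.48, 4.33 and 3.76 CPM (shARID1A/B.4.2). The libraries of shARID1B.3 were as low as those of shARID1A/B.2.3 and below those of shARID1A/B.4.2. The combined change was -2.73 (SE 0.10, FDR 4.00e-40) and the departure from the sum of the single changes 0.76 (SE 0.14, FDR 0.000281) (edgeR).

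The remaining large falls were near MIR3910-1 (a microRNA gene, log2 -2.81), LOC101927174 (-2.78), the pseudogenes IFITM4P (-2.77) and ANXA2P3 (-2.74), and PANDAR, a long non-coding RNA next to CDKN1A (-2.76). In all of them the 12 single-shRNA libraries lay below every Control library. The MIR3910-1 site lies within the protein-coding gene ROR2 in GENCODE. The IFITM4P site departed from the sum of the single changes by 0.95 (SE 0.18, FDR 0.001), and the ANXA2P3 site was lower with shARID1A/B.2.3 than with shARID1A/B.4.2 by -1.33 (SE 0.18, FDR 9.02e-09) (edgeR). All 10 named falls passed the test under each scaling, with each replicate left out and with DESeq2.

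Rises were smaller than falls. The largest was at a site 13377 bases downstream of LOC100128139 on chromosome 19 (chr19:22545799-22546207), with 0.481, 0.740 and 0.361 CPM in Control. The shARID1A/B.2.3 libraries had 1.02, 1.35 and 1.76 CPM, those of shARID1A/B.4.2 had 1.88, 1.52 and 1.34 CPM, and the level was 0.764 to 1.44 CPM in the single-shRNA libraries. All 18 silenced libraries lay above Control, and the single shRNAs overlapped the combinations. The log2 change was 1.46 (SE 0.25, FDR 1.21e-06), 0.96 (SE 0.27, FDR 0.00823) with ARID1A shRNAs and 0.87 (SE 0.27, FDR 0.0243) with ARID1B shRNAs (edgeR), so that the last did not pass the FDR threshold.

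The KCNA3 site, 16823 bases upstream of the gene of a voltage-gated potassium channel on chromosome 1, had 0.577, 0.945 and 0.762 CPM in Control. It had 0.498, 0.731 and 0.449 CPM (shARID1A.2), 1.14, 1.29 and 1.57 (shARID1A.4), 1.66, 1.47 and 1.29 (shARID1B.2) and 1.34, 1.51 and 1.43 (shARID1B.3). The combinations had 2.17, 2.18 and 2.20 CPM and 2.11, 2.07 and 1.76 CPM (2.3 and 4.2). The shARID1A.2 libraries overlapped Control, and all single-shRNA libraries lay below the combinations. The combined log2 change was 1.43 (SE 0.20, FDR 1.11e-08) (edgeR).

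The RGS4 site, 18232 bases upstream of a gene whose product dampens G protein signals (chr1:163050612-163050873), had 1.11, 0.781 and 1.36 CPM in Control. It had 2.47, 2.59 and 1.94 CPM with shARID1A.4 and 0.951, 0.853 and 0.584 CPM with shARID1A.2, and 1.18, 1.35 and 1.15 CPM with shARID1B.2 and 1.17, 1.26 and 0.798 CPM with shARID1B.3. The combinations had 2.99, 2.95 and 1.98 CPM with 2.3 and 3.45, 2.99 and 2.74 CPM with 4.2. The libraries of shARID1A.4 lay above Control, and those of the other single shRNAs overlapped it. The combined log2 change was 1.40 (SE 0.19, FDR 1.45e-09) and that of shARID1A.4 1.12 (SE 0.22, FDR 0.000118) (edgeR).

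The MRS2 site, 8556 bases upstream of a gene for a mitochondrial magnesium channel (chr6:24393705-24395000), had 1.01, 1.19 and 1.08 CPM in Control and 1.10, 1.20 and 1.0 CPM with shARID1A.4. It had 2.67, 3.09 and 3.05 CPM with shARID1A.2, 4.14, 3.76 and 4.13 with shARID1A/B.2.3 and 1.97, 1.70 and 2.50 with shARID1A/B.4.2. The libraries of shARID1A/B.2.3 lay above those of shARID1A/B.4.2, by 0.95 (SE 0.16, FDR 8.17e-06), and the combined change was 1.38 (SE 0.18, FDR 7.12e-10) (edgeR).

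Near SESN2, a stress-induced regulator of growth signals, the site 10352 bases upstream had 3.46, 2.47 and 3.21 CPM in Control, 7.22, 6.74 and 8.31 with shARID1A/B.2.3 and 7.71, 8.05 and 8.16 with shARID1A/B.4.2, and every single-shRNA library lay above Control. Its log2 change was 1.34 (SE 0.13, FDR 3.11e-15) (edgeR). Other rises were near LINC00266-1 (log2 1.38, within PCMTD2 in GENCODE), SPIN2A, a histone reader (1.27), SLC6A17, a neuronal vesicle transporter of amino acids (1.26), the transfer RNA gene TRNAV15 (1.24) and BATF, an AP-1 family factor (1.21). All 10 rises passed the test under each scaling, with a range of 0.98 to 1.23 under TMM on promoter sites.

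The genes with the most opened sites of the class were others. LOC100287823, on an unlocalized sequence of chromosome 14, had 10 of 16 sites opened, with a sum of 29.1 ± 2.11 CPM in Control, 46.8 ± 6.90 with shARID1A/B.2.3 and 41.3 ± 0.489 with shARID1A/B.4.2. MIR3687 and BAGE2 on chromosome 21 had 6 of 10 and 6 of 16 sites opened, LOC101060017 on chromosome 2 had 5 of 12 and LOC146481 on chromosome 16 had 5 of 13. BAGE2 belongs to a family of near-identical copies, so that reads could be split or misassigned between copies, and no source used here gives how reads with several placements were counted. Whether reads could be placed uniquely was not tested at any of these 5 genes. None of these 5 genes had a closed site of the class.

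Each combination was then compared with Control alone, and both comparisons share the Control libraries. With shARID1A/B.2.3, 6364 sites closed and 1705 opened, which were 10.3% and 2.75% beside 10.4% and 2.85% over all tested sites. With shARID1A/B.4.2, 4739 closed and 1667 opened, or 7.64% and 2.69% beside 7.37% and 3.97%. The shARID1A/B.2.3 count without replicate 2 of that group was 4951 closed, beside 5808 without replicate 1 and 5856 without replicate 3. This replicate 2 had 40953070 reads, beside 22181183 to 23043869 in the shARID1A/B.4.2 libraries. Its chi-square per degree of freedom was 2.47 and 2.19 against its mates, beside 1.09 between them. The part of depth in these counts was not tested. The order of the combinations depended on the scaling, since with TMM on promoter sites 7813 sites closed and 626 opened with shARID1A/B.2.3 and 9237 closed and 324 opened with shARID1A/B.4.2. With loess offsets shARID1A/B.2.3 closed 5936 sites and opened 3038. Compared directly, 1928 sites of the class were lower and 940 higher with shARID1A/B.2.3 than with shARID1A/B.4.2, which were 3.11% and 1.52% beside 3.79% and 1.43%. That balance turned to 1003 lower and 1859 higher with TMM on promoter sites, and was near equal with scaling to total counts (1459 and 1465) and with loess offsets (1547 and 1236). The counts with TMM on promoter sites were 1.62% and 3.00%, beside 1.83% and 2.94% over all tested sites.

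Silencing of either gene alone was tested in the same way, again against the shared Control. The ARID1A shRNAs, averaged, closed 3502 sites and opened 784, or 5.65% and 1.26% beside 5.37% and 1.67% over all tested sites. The ARID1B shRNAs closed 2220 and opened 730, or 3.58% and 1.18% beside 3.53% and 1.39%. Without Control replicate 2, the opened counts were 333 for ARID1A and 375 for ARID1B. With TMM on promoter sites 6101 sites closed and 161 opened for ARID1A, and 3718 closed and 252 opened for ARID1B. For ARID1A these were 9.84% and 0.260%, beside 9.72% and 0.287% over all tested sites. For ARID1B they were 5.99% and 0.406%, beside 5.96% and 0.508%. Single shRNAs of a gene were not alike in number. With shARID1B.2, 1224 sites closed and 780 opened (1.97% and 1.26%, beside 1.84% and 1.34%), and with shARID1B.3, 3051 closed and 1889 opened (4.92% and 3.05%, beside 4.88% and 3.12%). The libraries of shARID1B.3 included the deepest of the series, at 44472230 reads, and the part of depth in these counts was not tested. With shARID1A.2, 2806 closed and 470 opened (4.52% and 0.758%, beside 4.54% and 0.834%), and with shARID1A.4, 2813 and 1043 (4.54% and 1.68%, beside 4.17% and 2.28%).

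**Figure D4:**
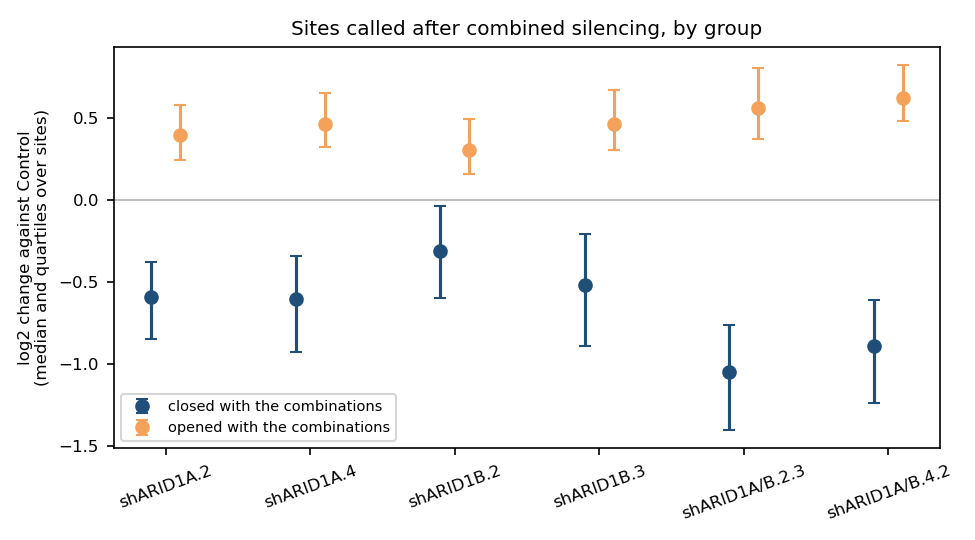
Log2 change against Control in each of the 6 silenced groups at the 6351 sites closed (blue) and the 1588 opened (orange) in the averaged contrast of the combinations, as the median with lower and upper quartiles over sites. Closed sites have medians from -0.31 with shARID1B.2 to -1.05 with shARID1A/B.2.3, and opened sites from 0.31 with shARID1B.2 to 0.63 with shARID1A/B.4.2; the combinations themselves chose these sites.

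The values of every group at the sites closed by the combinations are shown side by side in the plot of medians by group. Since the contrast of the combinations chose these sites and all contrasts share Control, the medians are descriptions. Closed sites had a median log2 change of -1.05 with shARID1A/B.2.3 and -0.89 with shARID1A/B.4.2, -0.59 and -0.60 with shARID1A.2 and shARID1A.4, and -0.31 and -0.52 with shARID1B.2 and shARID1B.3. Opened sites had 0.57 and 0.63 with the combinations, 0.40 and 0.47 with shARID1A.2 and shARID1A.4, and 0.31 and 0.46 with shARID1B.2 and shARID1B.3.

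The combinations were also set against the 4 single-shRNA groups, without use of Control. There 4082 sites were lower and 411 higher in the combinations, or 6.58% and 0.663% beside 6.85% and 0.969% over all tested sites. The higher count was 267 without shARID1A/B.4.2 replicate 3, and with loess offsets 3650 sites were lower and 882 higher. Departure from a sum of the ARID1A and ARID1B log2 changes was rare: 199 sites were lower than that sum and 101 higher, or 0.321% and 0.163% beside 0.376% and 0.14%. The higher count was 60 without Control replicate 1. It was 67 when shARID1A/B.4.2 replicate 1 was left out, and with TMM on promoter sites the counts were 88 lower and 162 higher, and with loess offsets 191 and 158. A site that does not pass this test is not shown to be additive.

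**Figure D5:**
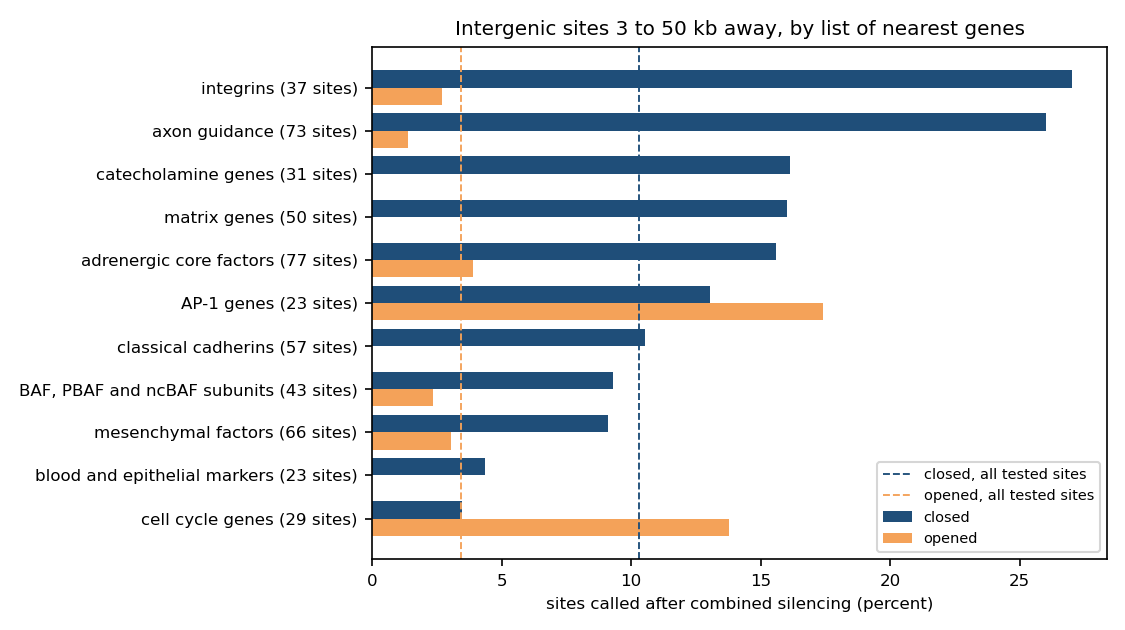
Percent of the tested intergenic sites 3 to 50 kb away that closed (blue bars) or opened (orange bars) after combined silencing, by list of nearest genes, with the number of sites in brackets. Dashed lines mark 10.3% closed and 3.43% opened over all tested sites of the series; integrins (27.0%) and axon guidance genes (26.0%) have the highest closed shares, and AP-1 genes (17.4%) and cell cycle genes (13.8%) the highest opened shares, both of which turn to no more opened than closed sites with TMM on promoter sites. For AP-1 genes the bars average 5 closed and 1 opened with shARID1A/B.2.3 and 1 closed and 4 opened with shARID1A/B.4.2. The closed sites of the integrin list lay near 5 genes and those of the axon guidance list near 9.

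Sites were then grouped by lists of nearest genes, each read against 10.3% closed and 3.43% opened over all sites. For the list of adrenergic core factors, 12 of 77 sites (15.6%) closed and 3 opened, with a median log2 change of 0.01. This median was -0.22 with TMM on promoter sites.

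The sites named for this list are the most accessible of 3 genes and do not show its balance, since HAND1, TFAP2B and SOX11 also had 2, 1 and 1 closed sites, and the others that closed lay near genes not described here. HAND1 and TFAP2B, factors of the sympathetic lineage, had their most accessible site called as opened. The HAND1 site had 64.2, 69.0 and 58.2 CPM in Control, 75.1, 82.2 and 71.6 with shARID1A/B.2.3 and 90.5, 85.9 and 84.7 with shARID1A/B.4.2, with a log2 change of 0.35 (SE 0.07, FDR 2.02e-05) (edgeR). Its call was lost with TMM on promoter sites and with loess offsets. The TFAP2B site rose by 0.45 (SE 0.07, FDR 5.09e-07) (edgeR), more with shARID1A/B.4.2 than with shARID1A/B.2.3. The SOX11 site had a log2 change of 0.13 and did not pass the test.

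Genes of catecholamine synthesis, uptake and storage had 5 of 31 sites closed (16.1%) and none opened. The site 19615 bases upstream of SLC18A2, the vesicular monoamine transporter, had 9.48, 8.51 and 7.46 CPM in Control, 1.74, 1.49 and 2.20 with shARID1A/B.2.3 and 1.97, 2.30 and 2.46 with shARID1A/B.4.2. It had 3.76, 2.60 and 3.46 CPM (shARID1A.2), 2.98, 2.73 and 2.63 (shARID1A.4), 9.95, 8.92 and 9.57 (shARID1B.2) and 3.93, 4.89 and 4.50 (shARID1B.3). Libraries of shARID1B.2 overlapped Control and the other groups lay below it. The combined change was -2.09 (SE 0.12, FDR 7.53e-27) and the ARID1A change -1.49 (SE 0.12, FDR 5.99e-18) (edgeR). The site near CHGA, chromogranin A of secretory granules, fell by 0.56 on the log2 scale (FDR 1.75e-08, edgeR), and the other closed sites of this list lay near DBH (2 of 2) and SLC18A1 (1 of 3), genes named after their values were seen. The SLC6A2 site was not called, with a log2 change of -0.01. The GCH1 average of -0.17, also not called, stands for -0.70 (SE 0.15, FDR 8.66e-05) with shARID1A/B.2.3 and 0.36 (SE 0.14, FDR 0.0568) with shARID1A/B.4.2, which differed by -1.06 (edgeR).

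Axon guidance genes had 19 of 73 sites closed (26.0%) and 1 opened, with a median log2 change of -0.09. The closed sites lay near 9 of the 18 listed genes that had a site of the class. The site 3773 bases upstream of SEMA3D, a secreted semaphorin, had 13.1, 13.8 and 11 CPM in Control, 3.05, 2.72 and 2.73 with shARID1A/B.2.3 and 3.81, 3.96 and 3.85 with shARID1A/B.4.2, without overlap. Its log2 change was -1.93 (SE 0.11, FDR 1.18e-28) (edgeR). The EFNA5 site, near an ephrin ligand, changed by -1.02 (SE 0.09, FDR 1.60e-16), more with shARID1A/B.4.2 (-1.40) than with shARID1A/B.2.3 (-0.64). A SEMA3E site had -0.37 (FDR 0.00545), a call lost with loess offsets, with GC offsets and with DESeq2, and an EPHB1 site had -0.04 and was not called. PLXNA2, a semaphorin receptor with 5 of 7 sites closed, and SEMA6A, with 4 of 8, were named after their values were seen.

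Integrins, the receptors through which cells hold the matrix, had 10 of 37 sites closed (27.0%) and 1 opened, with a median log2 change of -0.15. The closed sites lay near 5 genes, and 13 of the 26 listed integrins had a site of the class. Integrins, cadherins and mesenchymal genes were singled out by the study on these samples, so their counts are not independent evidence of a direction. The ITGA4 site 45539 bases upstream had 15.7, 16.5 and 13.9 CPM in Control, 9.59, 12.9 and 9.36 with shARID1A/B.2.3 and 5.06, 4.88 and 5.05 with shARID1A/B.4.2, and all combination libraries lay below Control. The change was -1.07 (SE 0.10, FDR 1.51e-15), and it was larger with shARID1A/B.4.2, by 1.10 (SE 0.13, FDR 7.64e-11) as 2.3 minus 4.2 (edgeR). ITGB6 fell by 0.85 on the log2 scale (FDR 6.74e-14, edgeR) and ITGAV by 0.44 (FDR 0.000211), the latter not called with GC offsets or without Control replicate 1, while the ITGB1 site, at 0.26, did not pass the test.

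Classical cadherins had 6 of 57 sites closed (10.5%) and none opened, a share at the background, with a median log2 change of 0.13. With TMM on promoter sites this median turned to -0.10. The count of opened sites was 4 with loess offsets. The CDH17 site, 16302 bases upstream, had 33.6, 32.8 and 33.4 CPM in Control, 15.9, 14.0 and 15.0 with shARID1A/B.2.3 and 29.3, 28.7 and 29.1 with shARID1A/B.4.2. The log2 change was -1.16 with the first and -0.20 with the second, and only the first passed the test. The sites of CDH5 (0.38), CDH12 (0.24) and CDH6 (0.37) were not called.

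Matrix genes had 8 of 50 sites closed (16.0%) and none opened, with a median of -0.12. The site 7710 bases upstream of LAMB1, a laminin chain of basement membranes, had 10.9, 9.66 and 10.9 CPM in Control, 3.51, 3.21 and 3.52 with shARID1A/B.2.3 and 3.81, 3.68 and 3.66 with shARID1A/B.4.2, without overlap, and changed by -1.56 (SE 0.11, FDR 1.17e-22) (edgeR). Sites of SPARC (-0.39), COL6A2 (-0.54) and COL1A1 (-0.73) also fell, the COL6A2 site not being called without Control replicate 1 or without Control replicate 3 and, by combination, with shARID1A/B.2.3 only.

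Mesenchymal factors had 6 of 66 sites closed (9.09%) and 2 opened (3.03%), near the background in both directions, with a median of 0.12. Their median turned to -0.11 with TMM on promoter sites. The most accessible sites of SNAI1 (log2 0.69, FDR 1.75e-05) and SNAI2 (0.57, FDR 0.000525, edgeR), repressors of epithelial genes, rose, the SNAI2 call being lost with TMM on promoter sites and without Control replicate 1 or 3. The LOXL2 and PRRX1 sites were not called, with 0.38 and 0.10. These named sites do not show the balance of the list, since none of them closed. The 6 closed sites lay near 3 genes, with a median log2 change of -1.05, and 5 of them fell by at least 1. AP-1 genes had 3 of 23 sites closed (13.0%) and 4 opened (17.4%) in the average of combinations that went opposite ways, with 5 closed and 1 opened with shARID1A/B.2.3 and 1 closed and 4 opened with shARID1A/B.4.2. Their sites near FOS (0.29) and FOSL1 (0.77) rose and those near FOSL2 (-0.58) and JUN (-0.82) fell in the averaged contrast. With each combination alone, FOS (0.45) and FOSL1 (1.21) were called with shARID1A/B.4.2 only, and FOSL2 (-0.85) and JUN (-1.35) with shARID1A/B.2.3 only. With TMM on promoter sites the list had 8 closed and 1 opened, and the FOS and FOSL1 calls were lost, as they were without Control replicate 2. The JUN call was lost without Control replicate 3.

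Cell cycle genes had 1 of 29 sites closed and 4 opened (13.8%), with a median log2 change of 0.25. Sites near CCNE1 (0.39) and CCND1 (0.33), cyclins of G1, were called as opened and the site near E2F1 as closed (-0.54), but with TMM on promoter sites the list had 2 closed and 1 opened, and the CCNE1 and CCND1 calls were lost, as they were with loess or GC offsets. The CCNE1 site was called with shARID1A/B.4.2 only (0.56) and the E2F1 site with shARID1A/B.2.3 only (-0.87). The E2F1 call was lost with loess offsets and without Control replicate 1, Control replicate 3 or shARID1A/B.2.3 replicate 2. The CCND2 site was not called, at -0.12. For subunits of the BAF, PBAF and ncBAF complexes, 4 of 43 sites closed (9.30%) and 1 opened. The ACTL6A site (log2 -0.90, FDR 1.86e-11) and the BRD7 site (-0.85, FDR 4.60e-10) fell, the GLTSCR1 site rose (0.58, FDR 1.36e-05, edgeR), and the SMARCD3 site did not pass the test (0.08). Blood and epithelial markers, the list for other cell types, had 1 of 23 sites closed and none opened.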

How the data were processed

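ATAC-seq had been run on 21 libraries of SK-N-BE(2) cells, 3 for each of 7 groups taken from the sample labels. The authors deposited raw counts of reads per consensus site, pooled over the libraries into 367900 sites, together with columns of their own comparisons (log2 ratios and p-values), which were not used. The submitters' processing notes name GRCh38 and DESeq2. No source used here gives the aligner, the peak caller, the treatment of reads with several placements or any shift of reads for Tn5. The Control columns are repeated in several tables and were identical, and they were counted once. No count column lacked a sample (0 such columns).

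Sites were selected by the deposited HOMER annotation and distance (over 3000 and at most 50000 bases). The members and the gene lists were chosen with earlier results of these data known. Counts were filtered with edgeR 4.0.16 filterByExpr (minimum count 10), which kept 357029 of 367900 sites, scaled by TMM and tested with the quasi-likelihood test in R 4.3.3, in 1 fit of all 7 groups without a replicate term. Benjamini-Hochberg FDR values were adjusted over all tested sites, and calls were made at an FDR under 0.01, the common biological coefficient of variation being 0.0817. TMM assumes that most sites are unchanged. On simulated counts for the averaged contrast over 357029 sites, 91.0% of sites changed by 1 on the log2 scale and 100.0% of those changed by 2 were recovered. The 200 changed sites were drawn only from sites above a minimum mean count, and every site had the common coefficient of variation. Recovery at sites with fewer reads was not tested. Library totals of 16140029 to 44472230 reads set the precision, and p-values cover the spread between libraries.

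The sites named were the 10 largest falls and rises under the rule given with them, and for each gene list the most accessible site of the 4 genes whose sites had the highest mean CPM. Alternatives were DESeq2 1.42.0 size factors and test, total counts, TMM on promoter sites, loess and GC offsets, no filter, a replicate block, the compared groups alone, other thresholds, and leaving out each library. GENCODE 44 and the GRCh38 sequence gave overlaps, GC content and motif words. The values of 1 named site and the sequence of another are not reported here.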

Additional observations from a re-analysis of the deposited data

Results flagged for a closer look

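The combinations differed from each other at 17 of the 64 named sites (edgeR contrast of shARID1A/B.2.3 minus shARID1A/B.4.2, FDR under 0.01), 13 of them lower and 4 higher with shARID1A/B.2.3. The log2 difference at the sites with the largest falls and rises was -0.99 at CRYGS, -1.33 at ANXA2P3, -0.80 at LINC01105 and 0.95 at MRS2. At TFAP2B, an adrenergic factor, it was -0.46. The AP-1 genes had -0.55 at FOSL2, -0.88 at FOSL1 and -1.07 at JUN. Adhesion and matrix genes had 1.10 at ITGA4, -0.96 at CDH17, -0.76 at COL6A2 and -0.50 at COL1A1. Further differences were 0.76 at EFNA5, -1.06 at GCH1, -0.35 at CCNE1 and -0.66 at E2F1. At these sites the average over both combinations stands for values that differ by more than the spread between libraries. The balance of lower and higher sites in this contrast depends on the scaling, and groups of 3 libraries were not tested for outlying samples.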

How the results depend on the processing

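No named site called in the main run or in an alternative run changed the direction of its combined log2 change between them. At named sites called in neither of these runs, the sign turned in 27 of the alternative values. The balance of closed and opened sites turned for the gene lists and contrasts named in the report. All 10 named falls and 10 named rises kept their direction and call in every setting. Counts for the sites of the class that moved by over 1.5 times are given as closed or lower, then opened or higher. With TMM on promoter sites they were 9783 and 298 for the averaged combinations, 626 opened for shARID1A/B.2.3, 9237 and 324 for shARID1A/B.4.2, 6101 and 161 for ARID1A, 3718 and 252 for ARID1B, 126 higher in combinations than in single shRNAs, and 88 and 162 for the departure. Loess offsets gave 2711 opened for the average, 3038 for shARID1A/B.2.3, 882 higher than in single shRNAs and 158 for the departure. The DESeq2 test gave 1050, 902 and 173 for the first 3 of these, and the compared groups alone gave 939 opened for shARID1A/B.2.3. GC offsets gave 382 lower for the departure, and GC offsets with the replicate block gave 1111 opened for ARID1B and 475 and 155 for the departure. The replicate block alone gave 6490 and 1786 for the average and moved no count by over 1.5 times. Deviations from the group mean in same-numbered libraries of different groups correlated at -0.283 to 0.475 (median 0.0124), above 0.1 in 12 of 63 pairs. For libraries with other numbers the range was -0.331 to 0.279 (median -0.0114), above 0.1 in 19 of 126 pairs. Of the 21 libraries, 11 were closest to their own number. With both medians near 0, the numbers were not taken to pair the samples, although some same-numbered libraries may share a deviation. At an FDR under 0.05 the counts were 3352 opened for the average, 3869 for shARID1A/B.2.3, 3048 for shARID1A/B.4.2, 1828 for ARID1A, 3350 and 1615 for ARID1B, 1414 higher than in single shRNAs, and 560 and 255 for the departure. With a log2 change of at least 1 they were 2918 and 168, 3532 and 396 (shARID1A/B.2.3), 2528 and 310 (shARID1A/B.4.2), 930 and 67 (ARID1A), 577 and 79 (ARID1B), 307 and 11 (against single shRNAs), and 56 and 33 (departure), and 5 named sites differed between the combinations. Leaving out each library in turn gave 5196 to 6018 closed and 1129 to 2337 opened for the average, 4951 to 6105 and 1190 to 1887 for shARID1A/B.2.3, 3578 to 4250 and 1159 to 1482 for shARID1A/B.4.2, 2628 to 3317 and 333 to 1157 for ARID1A, 1614 to 2091 and 375 to 787 for ARID1B, 3206 to 4101 and 267 to 476 against single shRNAs, 145 to 280 and 60 to 106 for the departure, and 13 to 18 named sites that differed between the combinations. The lowest opened counts for ARID1A and ARID1B were without Control replicate 2. The cause of these shifts was not tested, apart from the stricter or looser threshold where that was the change. A fit of the compared groups alone was not run for the departure, which uses all groups. Sites with few reads limit what can be called, since in the lowest quartile of CPM the median coefficient of variation between Control libraries was 29.4%.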
